A study of Rattus norvegicus with 12 samples.

Results

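The genes described here encode the neuron-specific beta-tubulin and the classical microtubule-associated proteins: Tubb3, Mapt, Map2, Map1a, Map1b and Map4. All probe sets whose only gene symbol in the platform annotation was one of these genes were taken, which gave 14 of the 31099 probe sets on the array and 6 of its 14218 singly named genes. Mtap4, the older symbol of Map4, matched no probe set under that spelling. Microtubules are hollow polymers of alpha- and beta-tubulin that give axons and dendrites their shape and carry vesicle transport. Tubb3 encodes beta-III-tubulin, the isotype found mainly in neurons, and Mapt encodes tau, which binds axonal microtubules. Map2 encodes a protein of dendrites and cell bodies, Map1a and Map1b encode large proteins that prevail in mature and in growing neurites, and Map4 encodes the related protein of many non-neuronal cells.

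The arrays measured messenger RNA of young male Wistar rats, 12 arrays in 6 groups of 2: sciatic nerve, spinal cord and cerebellum, each after acrylamide and after saline. Acrylamide is a reactive vinyl monomer and a well-known toxin of long axons and their terminals. It was given by gavage at 30 mg/kg daily, and each array carried pooled tissue of 2 rats. P-values therefore cover the variation of pools only. The sample labels put the starting age at 25 days and the series text at 3 weeks, the controls appear both as saline and as solvent, and the interval between the last of the 21 daily doses and collection is not settled, nor is the pairing of tissues by rat. Signals are intensities in arbitrary units on a linear scale, and differences are on the log2(signal + 16) scale with the standard error (SE) from limma. In bulk tissue, fewer cells of a type and less RNA per cell cannot be told apart. A signal is compared only within a probe set, since probe sets differ in brightness for the same amount of RNA.

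The tissue labels fitted their defining markers, with some arrays standing apart. Summed over 10 cerebellar neuron markers, the signal was 81011 to 88496 in the cerebellum and 1856 to 2609 in the spinal cord. In the nerve the same sum was 13850 and 944 on acrylamide replicates 1 and 2, and 10603 and 1065 on saline replicates 1 and 2. Both nerve replicate 1 arrays thus carried 16.6% (acrylamide) and 12.3% (saline) of the summed cerebellar level of their treatment, against 1.13% and 1.23% on the replicate 2 arrays. Motor neuron markers, 4 of 5 genes on the array, summed to 2872 to 3210 in the cord and to at most 133 elsewhere. Schwann cell markers, 5 of 8 genes, summed to 91015 to 113851 in the nerve, 31965 to 44056 in the cord and 1724 to 2019 in the cerebellum, so they were not restricted to the nerve. Spinal cord saline replicate 1 also carried skeletal muscle markers, with a sum of 41601 against 4809 to 6191 on the other cord arrays. Acrylamide replicate 2 of the nerve did so as well, with 22076 against 3264 to 7925 on the other nerve arrays. The main nerve results below are given with and without the replicate 1 arrays.

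The starts of 4 of the 6 genes were found in the RefSeq promoter table (GRCr8). The 250 bases before the start are shown for Tubb3, Map1a and Map1b, whose windows held one of the motifs searched. Their brightest probe sets had the cord highest and the nerve lowest, an order that Map2 shared and that Map1b probe set 1395357_at did not (means over 4 arrays were 4241 for spinal cord against 4316 for cerebellum). Capitals mark the GC box GGGCGG and the TATA box TATAAA, searched on both strands with no overlap between the motifs, and both GC boxes of Map1a read CCGCCC on the strand shown.
Tubb3: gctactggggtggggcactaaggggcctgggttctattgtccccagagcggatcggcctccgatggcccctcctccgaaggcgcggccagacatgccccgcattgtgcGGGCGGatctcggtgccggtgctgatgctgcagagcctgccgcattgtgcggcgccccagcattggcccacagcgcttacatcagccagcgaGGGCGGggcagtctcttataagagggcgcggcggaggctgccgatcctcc
Map1a: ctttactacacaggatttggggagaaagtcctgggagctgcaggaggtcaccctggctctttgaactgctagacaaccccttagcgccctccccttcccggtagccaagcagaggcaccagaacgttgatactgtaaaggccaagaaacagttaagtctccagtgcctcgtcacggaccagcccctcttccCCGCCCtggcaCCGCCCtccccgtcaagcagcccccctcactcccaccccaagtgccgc
Map1b: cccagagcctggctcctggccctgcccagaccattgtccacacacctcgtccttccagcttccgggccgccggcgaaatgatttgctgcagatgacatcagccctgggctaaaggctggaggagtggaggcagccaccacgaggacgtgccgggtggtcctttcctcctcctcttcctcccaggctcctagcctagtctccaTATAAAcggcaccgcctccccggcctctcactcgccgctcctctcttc
The Tubb3 window lies at chr19:68365437-68365686 (plus strand), the Map1a window at chr3:128722445-128722694 (plus strand) and the Map1b window at chr2:32644472-32644721 (minus strand). Tubb3 and Map1a each held 2 GC boxes and no TATAAA, whereas Map1b held 1 TATAAA and no GC box. Map2, the other gene with an entry, held neither motif in its window. Among 33469 rat promoter windows of the same length, 30.5% held a GC box and 12.9% held TATAAA. The letters CG occurred 21 times in the Tubb3 window, 13 times in that of Map1b, 9 times in that of Map1a and once in that of Map2, against a median of 5 over all windows. The G and C share was 68% for Tubb3 and 32% for Map2, with a median of 51.2%. These matches describe the windows and are not evidence of binding.

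Tubb3 showed the widest separation between the 2 tissues of the central nervous system. Its probe set 1371618_s_at had signals in the sciatic nerve of 368 and 379 after acrylamide and 462 and 550.0 after saline. In the spinal cord it had 4461 and 4733 after acrylamide and 4381 and 4807 after saline, and in the cerebellum 1115 and 1013 after acrylamide and 1002 and 1154 after saline. The 3 tissues did not overlap on any array, with the cord highest and the nerve lowest. In saline rats the nerve was 8.85-fold lower than the cord (log2 difference -3.15 ± 0.11 SE, limma Benjamini-Hochberg adjusted p = 1.35e-06) and 2.10-fold lower than the cerebellum (-1.07 ± 0.11, limma adjusted p = 2.93e-05). The cord was 4.22-fold higher than the cerebellum (2.08 ± 0.11, limma adjusted p = 2.4e-06). Without the replicate 1 nerve arrays the difference between nerve and cord was -3.02 and that between nerve and cerebellum was -0.95, which is under 2-fold. A further Tubb3 probe set, 1369901_at, stayed at 14.5 to 59.5 on all arrays, under the filter signal of 112, and was not tested.

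Tau messenger RNA was high in both central tissues and low in the nerve. Mapt (1387071_a_at) had nerve signals of 702 and 266 after acrylamide and 562 and 244 after saline. Its cord signals were 5847 and 6058 after acrylamide and 5889 and 5597 after saline, and its cerebellum signals were 6693 and 6532 after acrylamide and 6601 and 6482 after saline. In each treatment the higher nerve value was on replicate 1. In saline rats the nerve was 14.9-fold lower than the cord (-3.89 ± 0.42, limma adjusted p = 6.59e-05) and 16.9-fold lower than the cerebellum (-4.08 ± 0.42). Without the replicate 1 arrays, which leaves 1 saline nerve array, the nerve lay further below the cord, at -4.47, and below the cerebellum, at -4.66. The probe sets 1368137_at and 1368138_at gave -2.69 and -3.15 against the cord and -3.15 and -3.42 against the cerebellum, so all 3 had the same direction.

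Map2 had the largest spread between nerve arrays of the same group. Probe set 1388152_at had nerve signals of 1395 and 181 after acrylamide and 1136 and 291 after saline. Its cord signals were 8813 and 8205 after acrylamide and 8220.2 and 7508 after saline, and its cerebellum signals were 6616 and 6066 after acrylamide and 6758 and 6716 after saline. All 4 nerve values lay far below those of the central tissues, although replicate 1 exceeded replicate 2 by 7.69 times after acrylamide and 3.90 times after saline. The saline nerve was 13.2-fold lower than the cord (-3.73 ± 0.80, limma adjusted p = 0.00342) and 11.3-fold lower than the cerebellum (-3.50 ± 0.80, limma adjusted p = 0.00352). Without replicate 1 these differences were -4.68 ± 0.09 and -4.46 ± 0.09, with SEs taken from the spread in the other tissues. Probe set 1368411_a_at was under the filter signal on both saline nerve arrays, at 93.3 and 39.7. There the cord was at least 11.7-fold and the cerebellum at least 8.71-fold higher than the nerve, with the filter signal in place of the nerve values.

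Map1a followed the order of Tubb3, with smaller steps from the cord and a larger step between nerve and cerebellum. Probe set 1367882_at had nerve signals of 934 and 756 after acrylamide and 829 and 764 after saline. Its cord signals were 4851 and 5034 after acrylamide and 4639 and 4560.0 after saline, and its cerebellum signals were 2447 and 2321 after acrylamide and 2303 and 2589 after saline. No tissue overlapped another. The saline nerve was 5.69-fold lower than the cord (-2.51 ± 0.11, limma adjusted p = 1.48e-06) and 3.03-fold lower than the cerebellum (-1.60 ± 0.11). The cord was higher than the cerebellum by 0.91 ± 0.11, which passed the adjusted test (limma, 0.000137) but not the 2-fold minimum.

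Among the 5 genes that were lower in the nerve, Map1b had the smallest differences by its brightest probe set. Probe set 1373363_at had nerve signals of 5531 and 5411 after acrylamide and 5235 and 5971 after saline. Its cord signals were 10326 and 11075 after acrylamide and 10669 and 10958 after saline, and its cerebellum signals were 8906 and 8896 after acrylamide and 9034 and 9648 after saline. The nerve was lower than the cord in saline rats by 1.93-fold (-0.95 ± 0.07, limma adjusted p = 1.17e-05) and lower than the cerebellum by 1.67-fold (-0.74 ± 0.07), both short of 2-fold. The dimmer probe sets 1395357_at and 1371003_at gave larger differences, -1.35 and -1.64 against the cord and -1.41 and -1.35 against the cerebellum, each past the 2-fold minimum.

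Map4, the member of non-neuronal cells, ran the other way. Probe set 1371607_at had nerve signals of 7771 and 7332 after acrylamide and 7098 and 8945 after saline. Its cord signals were 5895 and 5462 after acrylamide and 5092 and 5522 after saline, and its cerebellum signals were 3808 and 3562 after acrylamide and 3476 and 3407 after saline. The nerve was the highest tissue on every array and the cerebellum the lowest. The saline nerve was 2.31-fold higher than the cerebellum (1.21 ± 0.11, limma adjusted p = 9.93e-06) and higher than the cord to a lesser degree (0.59 ± 0.11, limma adjusted p = 0.00123). Probe set 1373268_at gave 1.35 and 0.52 for the same differences. The dim probe set 1392254_at, at 67.4 to 263 on all arrays, had the opposite direction, with -1.47 ± 0.24 between nerve and cerebellum and -0.54 ± 0.24 between nerve and cord (limma adjusted p = 0.0854).

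**Figure D1:**
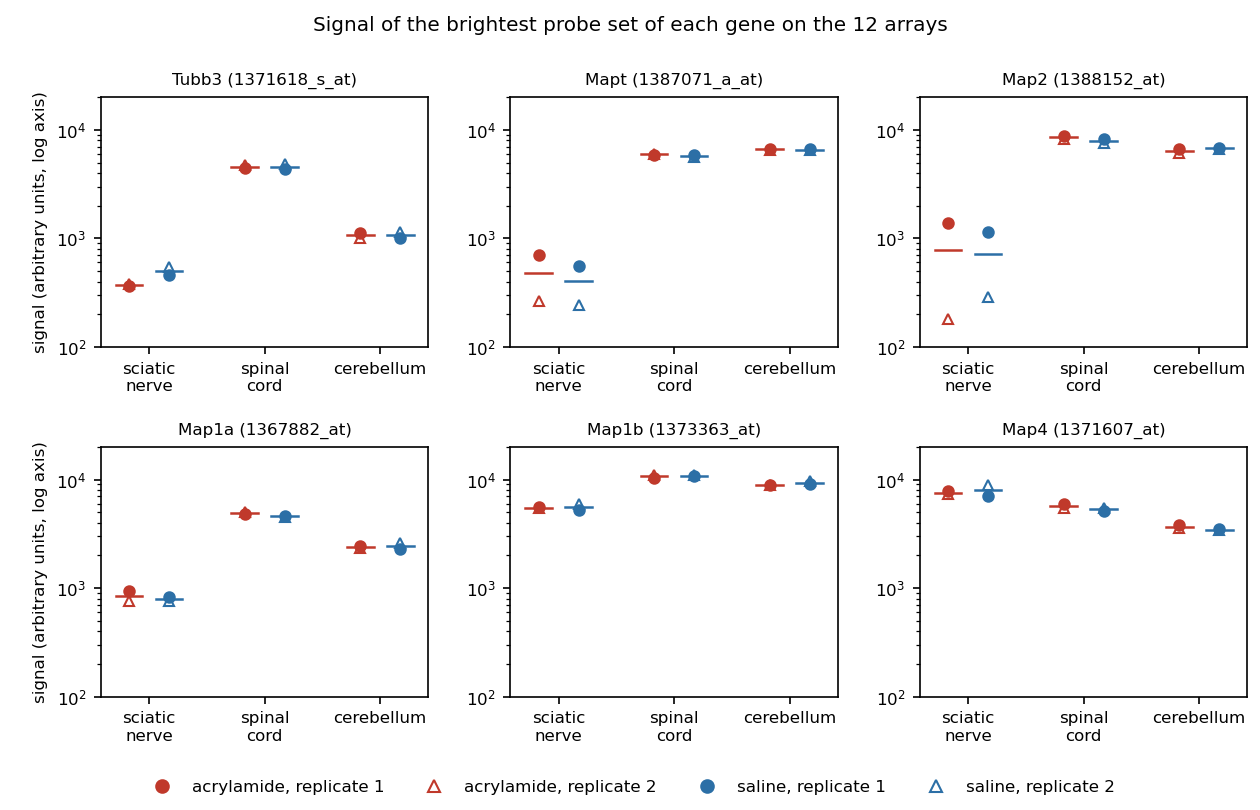
Signal (arbitrary units, log axis) of the brightest probe set of each gene on the 12 arrays, by tissue and treatment, with a line at each group mean of 2 arrays. Map4 is highest in the nerve and the other 5 genes are lowest there, and the Mapt and Map2 points of the nerve lie apart by replicate (Map2: 1395 and 181 after acrylamide, 1136 and 291 after saline).

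Counted over probe sets, the nerve stood below both central tissues. A call required an adjusted p under 0.05 and at least a 2-fold difference between saline groups. In the nerve against the cord, 9 of 13 tested probe sets were called and all 9 were lower, against 15.5% lower calls among all 20238 probe sets tested (26.1% in either direction). In the nerve against the cerebellum, 12 of 13 were called, 10 lower and 2 higher, against 20.6% lower and 17.7% higher of 20703 (38.4% in either direction). The 2 higher calls were the bright Map4 probe sets. The lower calls included Map2 1368411_a_at in both comparisons and the dim Map4 1392254_at against the cerebellum. Their saline nerve means, 66.5 and 74.9, were under the filter signal. Both were tested only through the brighter tissue, so their differences are bounds. Without the nerve replicate 1 arrays the counts were 9 and 11, with Tubb3 against the cerebellum the call lost. In the cord against the cerebellum the only call was Tubb3, 1 of 13 against 21.6% of 20459 probe sets (12.1% higher and 9.53% lower), a share under that of all probe sets. The members' median differences were -2.51, -1.47 and 0.22 in these comparisons, and those of all probe sets tested were 0.04, -0.14 and -0.06.

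The cord and the cerebellum were also close neighbours for the brightest probe sets of Mapt and Map2. Their differences were -0.19 ± 0.42 and 0.22 ± 0.80, with SEs that include the spread between nerve arrays. In a fit of the 8 central arrays alone, chosen after the data were seen, the same differences had SEs of 0.06 and 0.07 and limma adjusted p-values of 0.0161 for Mapt and 0.0191 for Map2. Over all alternatives these p-values reached 0.849 and 0.916. Mapt was then lower and Map2 higher in the cord, both by less than 1.2-fold on average signals of 5743 against 6541 for Mapt and 7864 against 6737 for Map2. In the fit of all arrays the brightest probe set of Map4 was higher in the cord by 0.62 (limma adjusted p = 0.0011). That of Map1b was higher by 0.21 (limma adjusted p = 0.0371). Other probe sets of these genes differed in direction. Map4 1392254_at was 1.91-fold lower in the cord, with means of 117 against 237, and Map4 1373268_at was 1.77-fold higher. Map1b 1395357_at was 1.05-fold lower and Map1b 1371003_at 1.22-fold higher.

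**Figure D2:**
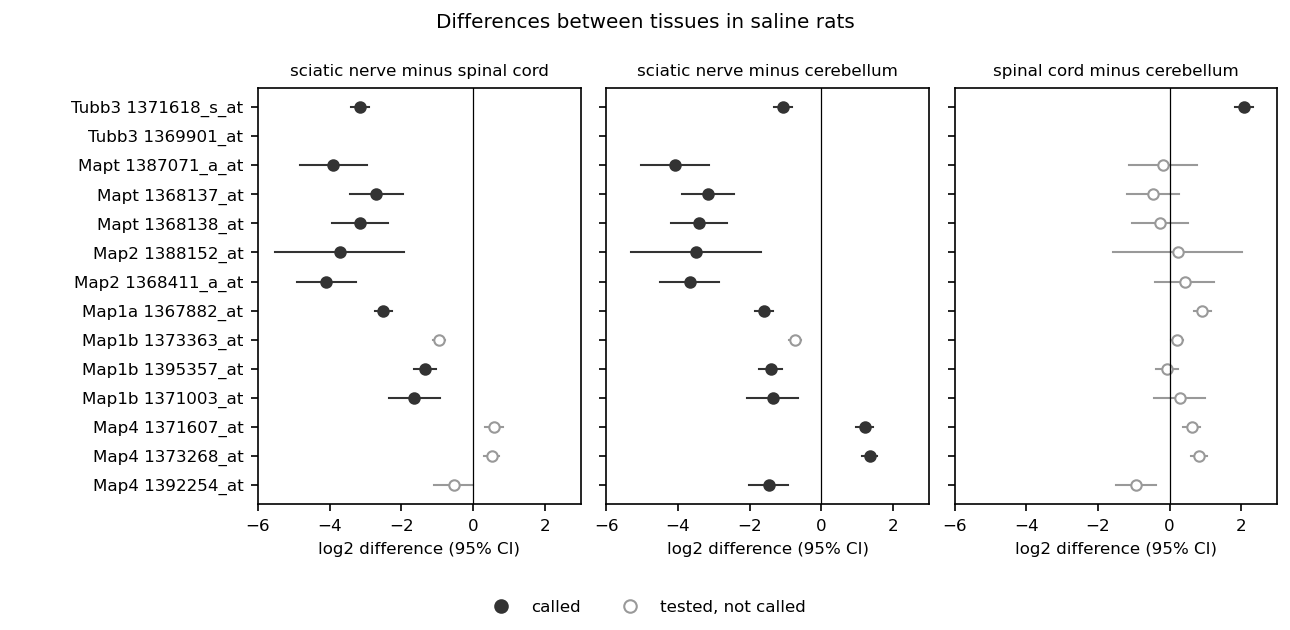
Log2 differences between tissues of saline rats (log2(signal + 16), points with 95% confidence intervals) for the member probe sets, with filled points for calls. Intervals of Mapt and Map2 are wide, Tubb3 is the only filled point of spinal cord minus cerebellum, and both bright Map4 probe sets lie to the right of 0 in sciatic nerve minus cerebellum.

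Set against the cerebellum of the same treatment, the nerve share varied widely between the brightest probe sets of the genes. The shares of Tubb3 and Map1a overlapped, as did those of Map2 and Mapt. Map2 stood at 22.0% and 2.86% of the cerebellar mean on acrylamide replicates 1 and 2, and at 16.9% and 4.33% on saline replicates 1 and 2. Mapt stood at 10.6% and 4.02% after acrylamide and at 8.59% and 3.73% after saline. Both moved with the cerebellar neuron markers, whose median ratio of replicate 1 over replicate 2 was 15.7 after acrylamide and 8.92 after saline over 10 genes. The part of those markers in the Map2 and Mapt signals of replicate 1 was not tested. Tubb3 stood at 34.5% and 35.6% after acrylamide and at 42.9% and 51.0% after saline, and Map1a at 39.2% and 31.7% after acrylamide and 33.9% and 31.2% after saline. Map1b stood at 62.1% and 60.8% after acrylamide and 56.0% and 63.9% after saline, and Map4 at 211% and 198.99% after acrylamide and 206% and 260% after saline. Other probe sets of these genes gave other shares. Map1b stood at 36.6% to 52.7% by 1395357_at and at 25.8% to 46.4% by 1371003_at. Map4 stood at 232% to 281% by 1373268_at but at 28.5% to 58.4% by the dim 1392254_at. For the brightest probe sets of Tubb3, Map1a, Map1b and Map4 the ratio of replicate 1 over replicate 2 lay between 0.794 and 1.24. Map1b 1371003_at had lower ratios, 0.557 after acrylamide and 0.717 after saline. Map1a was higher on replicate 1 in both treatments. The part of the cerebellar markers in the signals of these genes was not tested either.

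**Figure D3:**
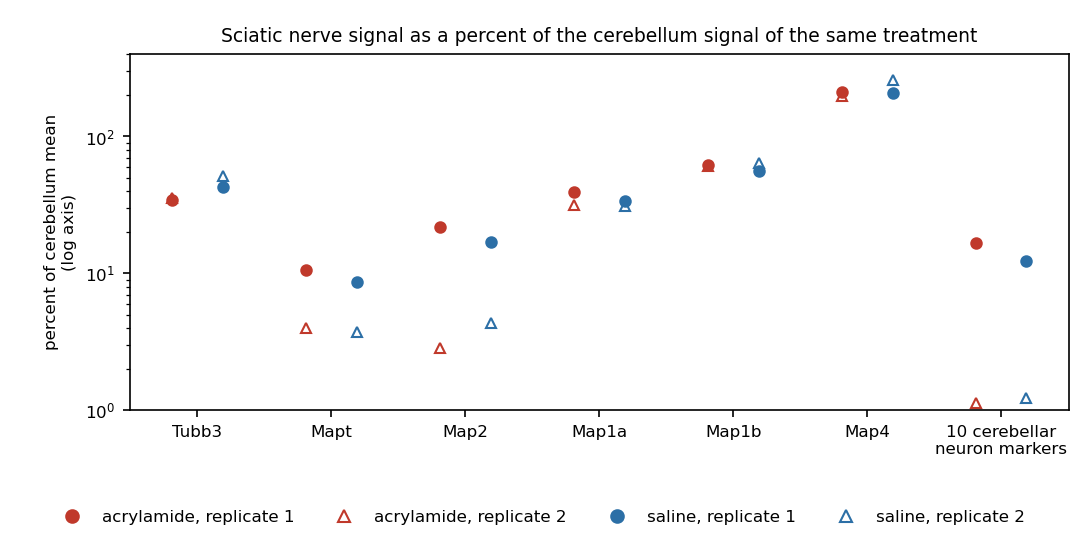
Sciatic nerve signal as a percent of the mean cerebellum signal of the same treatment (log axis), for the brightest probe set of each gene and for the summed signal of 10 cerebellar neuron markers, 1 point per nerve array. The marker points lie at 16.6% and 12.3% on the replicate 1 arrays and at 1.13% and 1.23% on the replicate 2 arrays, and Map2 and Mapt are the genes whose replicates lie clearly apart.

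The comparison the study was designed for, acrylamide against saline, gave no member past an adjusted p of 0.05 in any tissue. In the nerve 0 of 11 tested probe sets were called, against 0.00551% of 18161 (1 probe set). In the cord 0 of 13 were called, against 0% of 18934, and in the cerebellum 0 of 13, against 0% of 18780. At an unadjusted p under 0.05 in limma, 1 of 11 members passed in the nerve, against 5.1% of all probe sets. None of 13 passed in the cord, against 2.88%, or in the cerebellum, against 2.75%. The members' median differences were -0.03 in the nerve, 0.08 in the cord and 0.02 in the cerebellum, and each median over all probe sets was within 0.01 of 0.

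Tubb3 in the nerve was the member that passed the unadjusted test. Its mean signal was 373 ± 8.11 after acrylamide and 506 ± 62.1 after saline (SD, n = 2 each), and both acrylamide arrays were below both saline arrays. The log2 difference was -0.42 ± 0.11 (95% confidence interval -0.67 to -0.17), with an unadjusted p of 0.00444 and a Benjamini-Hochberg adjusted p of 0.895 in limma, 0.0822 to 1 over the alternatives. It was -0.32 between the replicate 1 arrays and -0.52 between the replicate 2 arrays. Tubb3 differed by 0.0018 in the cord (interval -0.25 to 0.25) and by -0.02 in the cerebellum (-0.27 to 0.24). The test of a difference in effect between tissues gave an unadjusted p of 0.043 and an adjusted p of 1 in limma. Neuron markers of the nerve did not separate by treatment, with sums over 10 genes of 18424 and 6527 after acrylamide and 16902 and 7656 after saline. Schwann cell markers summed to 91015 and 95242 after acrylamide and to 92230.1 and 113851 after saline, and fat cell markers to 22797 on saline replicate 1 and 3809 to 7899 on the other nerve arrays. Skeletal muscle markers summed to 5738 and 22076 after acrylamide and to 7925 and 3264 after saline. Without acrylamide replicate 2 the Tubb3 difference was -0.44 ± 0.14, and the part of the other marker lists in it was not tested.

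For the other members in the nerve the differences were small or imprecise. Map1a differed by 0.08 (interval -0.16 to 0.32), Map1b by -0.03 (-0.20 to 0.14) and Map4 by -0.08 (-0.32 to 0.16). Mapt differed by 0.22 (-0.73 to 1.16) and Map2 by -0.17 (-1.99 to 1.64), so changes of 2-fold in either direction lay inside the Map2 interval and a 2-fold increase inside that of Mapt. Both acrylamide arrays lay outside both saline arrays for 2 of 11 members in the nerve, against 26.2% of all probe sets (13.3% higher and 12.9% lower). These were Tubb3 below and Map1b 1395357_at above, the last at 1757 and 2119 after acrylamide and 1739 and 1686 after saline. With both nerve replicate 1 arrays left out, a step chosen after the data were seen, 1 member was called: Map2 at -0.64 ± 0.10 (limma adjusted p = 0.0169, against values of up to 1 over the other alternatives). That fit sets 1 nerve array against 1, takes its spread from the other tissues and called 389 of 17906 probe sets. Its acrylamide array is the nerve array with the raised skeletal muscle markers, whose part in the Map2 value was not tested.

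All tissues share the spread of a probe set in the fit of all arrays. The intervals of a member in the central tissues were therefore as wide as in the nerve. In the cord, Map1a differed by 0.10 (interval -0.14 to 0.34), Map4 by 0.10 (-0.14 to 0.33) and Map1b by -0.02 (-0.18 to 0.15). In the cerebellum, Map4 differed by 0.10 (-0.14 to 0.33), Map1b by -0.07 (-0.24 to 0.10) and Map1a by -0.03 (-0.27 to 0.21). Mapt differed by 0.05 in the cord and 0.02 in the cerebellum, with an SE of 0.06 in the fit of central arrays alone, and Map2 by 0.11 and -0.09 with an SE of 0.07. The groups did not overlap for 4 of 13 members in the cord, all higher after acrylamide, against 33.6% of all probe sets (17.7% higher and 15.9% lower). In the cerebellum they did not overlap for 5 of 13, 2 higher and 3 lower, against 33.7% (17.1% higher and 16.6% lower). In the cord, microglia and macrophage markers summed to 6538 to 6784 after acrylamide and 4565 to 4667 after saline, and astrocyte markers to 51202 to 51366 after acrylamide and 45187 to 45675 after saline. Schwann cell markers summed to 31965 to 35146 after acrylamide and 41180 to 44056 after saline in the cord, and fibroblast and endothelial markers to 16222 to 20512 after acrylamide and 24125 to 26349 after saline. In the cerebellum, microglia and macrophage markers summed to 2309 to 2531 after acrylamide and 1727 to 1887 after saline, and astrocyte markers to 40342 to 40493 after acrylamide and 36421 to 38098 after saline. Fibroblast and endothelial markers of the cerebellum summed to 3472 to 3506 after acrylamide and 2420 to 3382 after saline, and skeletal muscle markers to 3873 to 4721 after acrylamide and 5018 to 6001 after saline. These lists were named because their sums did not overlap between treatments, as was so for 33.6% (cord) and 33.7% (cerebellum) of all single probe sets. Neuron, cerebellar neuron, motor neuron and oligodendrocyte sums overlapped in both tissues. Fat cell markers of the cord also separated, with all genes under the filter signal. The part of any list in the members' values was not tested.

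Averaged over the 3 tissues, 0 of 13 members were called, against 0.00938% of 21332 (2 probe sets), and 0 of 13 passed an unadjusted p of 0.05 in limma, against 5.56%. The average of Tubb3 was -0.14 ± 0.06 (unadjusted p = 0.0513, adjusted p = 0.894). The averages of the members lay between -0.14 and 0.18. The test of differences between tissues called 0 of 13, against 0% of 21332, and 1 of 13 (Tubb3) had an unadjusted p under 0.05, against 2.76%.

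**Figure D4:**
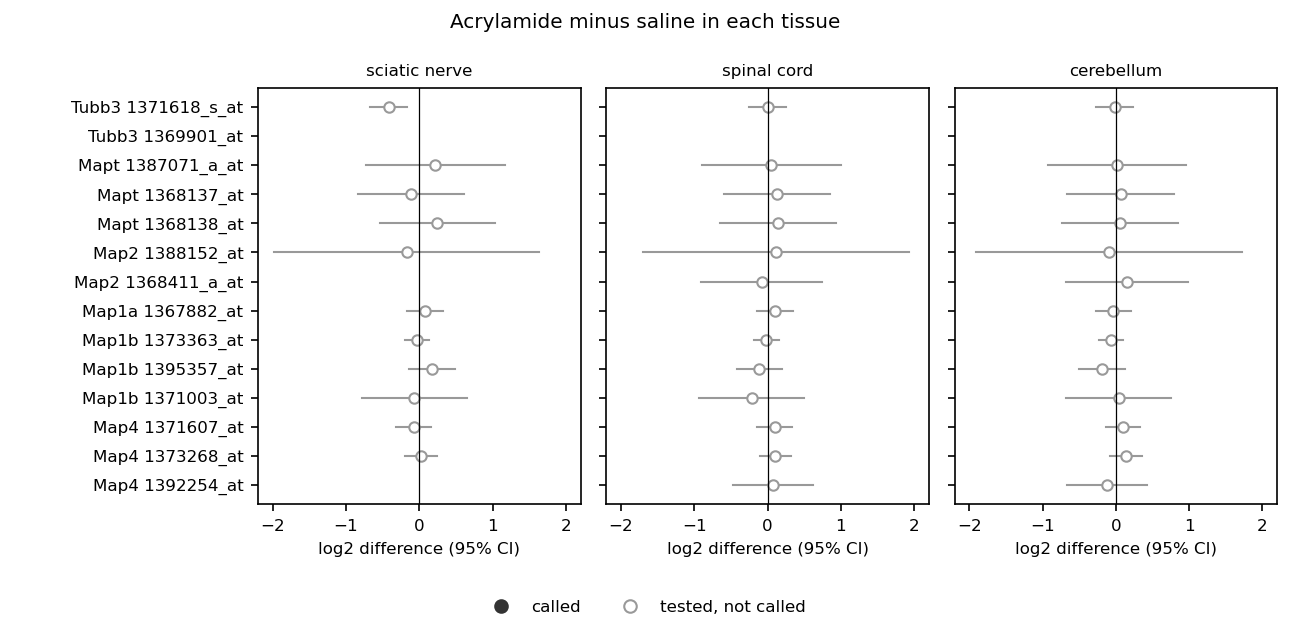
Acrylamide minus saline differences (log2(signal + 16), points with 95% confidence intervals) of the member probe sets in each tissue, none of them called. The interval of Tubb3 in the sciatic nerve, -0.67 to -0.17, is the one that does not include 0.

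Other genes of the microtubule system gave a setting for these values, each gene represented by its brightest probe set and each list described by counts only. Among other microtubule-associated proteins, 13 of 23 were lower in the saline nerve than in the cord and none was higher, against 15.5% lower and 10.6% higher calls among all probe sets. Examples were Map7, which links microtubules to kinesin (-3.97 ± 0.37), Map7d2 (-2.51 ± 0.23), the cold-stability protein gene Map6 (-1.52 ± 0.10) and Dpysl5 (-1.90 ± 0.19). Against the cerebellum, 8 of 21 were lower, with Dpysl4 at -4.34 ± 0.48, and 3 were higher (Tppp3, the doublecortin relative Dclk1 and Eml1), against 20.6% lower and 17.7% higher calls among all probe sets. The list's medians were -1.15 against the cord and -0.66 against the cerebellum. Its member Stmn2 is also among the neuron markers.

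The tubulins themselves did not move as a block. Of 7 alpha-tubulin genes listed, 2 were matched to probe sets by a single symbol and the others were not analysed here. Both were lower in the nerve than in either central tissue, Tuba4a by -3.28 ± 0.35 against the cord and -3.98 ± 0.35 against the cerebellum, and Tuba8 by -2.17 ± 0.61 and -3.40 ± 0.61. Tuba4a had nerve signals of 810.3 and 469 after acrylamide and 686 and 291 after saline, again higher on replicate 1. Without the replicate 1 arrays, which leaves 1 saline nerve array, its differences were -3.87 and -4.57, and those of Tuba8 were -3.32 and -4.55. Of 7 other beta-tubulins, 3 were lower in the nerve than in the cord, Tubb2b by -1.66 ± 0.09 and Tubb4a by -1.66 ± 0.16. The third, Tubb1, was under the filter signal on both saline nerve arrays, and the nerve was at least 1.81-fold lower. Tubb6, a beta-tubulin of broad distribution, was higher in the nerve than in the cord, by 2.00 ± 0.35. It was under the filter signal on both saline cerebellum arrays, where the nerve was at least 8.66-fold higher. The list's medians were -0.62 against the cord and 0.0017 against the cerebellum, where Tubb4a was the 1 lower call (-1.52 ± 0.16). Tubb6 signals in the nerve were 1167 and 1603 after acrylamide and 1049 and 901 after saline. Of 2 gamma-, delta- and epsilon-tubulin genes, Tube1 was lower in the nerve than in the cerebellum (-1.48 ± 0.19) and neither was called against the cord. Of 6 tubulin folding cofactors none was called in either nerve comparison, although 1 (cord) and 3 (cerebellum) had an unadjusted and an adjusted p under 0.05 in limma with less than a 2-fold difference.

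Enzymes and factors acting on microtubules gave calls in the nerve that were lower, with 1 exception. Of all probe sets, 15.5% were called lower in the nerve than in the cord and 20.6% lower than in the cerebellum. Among tubulin modifying enzymes, 5 of 11 were lower than in the cord (median -0.96), among them the polyglutamylase gene Ttll7 (-2.44 ± 0.22) and the deacetylase gene Hdac6 (-1.20 ± 0.14). Against the cerebellum (median -0.995) 5 of 11 were lower and Svbp, the partner of the vasohibin carboxypeptidases, was higher by 1.03 ± 0.13. Of 14 end binding and severing genes, 4 were lower than in the cord (median -0.34) and 6 lower than in the cerebellum (median -0.71), the plus-end protein gene Mapre3 at -1.17 ± 0.12 and -1.54 ± 0.12. Of the kinases and phosphatases of tau and its relatives, 2 of 11 were lower than in the cord (median -0.67), a share near that of all probe sets, and 5 of 12 lower than in the cerebellum (median -0.91). Cdk5, a tau kinase, was among them, at -1.17 ± 0.12 and -1.12 ± 0.12. Over all 8 lists, 5 of the 30 genes called against the cord and 4 of the 33 called against the cerebellum were under the filter signal in the dimmer tissue, so their differences are bounds. Without the nerve replicate 1 arrays 31 and 35 genes were called, 30 and 32 of them shared with the full set of arrays.

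Between the cord and the cerebellum the other microtubule-associated proteins gave 8 higher and 2 lower calls among 23 (median 0.43), against 12.1% higher and 9.53% lower of all probe sets, with Tppp3 at 3.28 ± 0.16, Dclk1 at 1.62 ± 0.11, Eml1 at 1.83 ± 0.22 and Eml2 at 1.66 ± 0.19. Of the higher calls, Dpysl3 and Dcx had both saline cerebellum arrays under the filter signal. With that signal in place of the cerebellum values, the cord was at least 1.09-fold (Dpysl3) and 1.06-fold (Dcx) higher. Tubb2b (1.44 ± 0.09) and Tubb6 (at least 2.06-fold, with the cerebellum under the filter signal) were higher in the cord, as Tubb3 was. Ppp2r2b, a regulatory subunit of protein phosphatase 2A, was higher by 1.94 ± 0.14 and the tubulin deacetylase gene Sirt2 by 1.14 ± 0.10. Tube1 (-1.78 ± 0.19) and the plus-end protein gene Clip1 (-1.24 ± 0.10) were lower in the cord.

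After acrylamide none of these lists held a call in any tissue or in the average. At an unadjusted p under 0.05 in limma, 4 of 70 listed genes passed in the nerve, 3 of 76 in the cord, 2 of 73 in the cerebellum and 2 of 77 in the average. These shares of 5.71%, 3.95%, 2.74% and 2.6% stood beside 5.1%, 2.88%, 2.75% and 5.56% of all probe sets. Leaving out the nerve replicate 1 arrays, a step chosen after the data were seen, set 1 nerve array against 1. Tuba4a then differed by 0.66 in the nerve, against 0.45 ± 0.35 with all arrays (limma adjusted p = 0.999). The end binding gene Camsap3, whose saline nerve signals were under the filter, then differed by 0.57 in the average. Tubb2b, singled out after its values were seen, had signals in the nerve of 1601 and 1549.8 after acrylamide against 1143 and 1322 after saline. In the cord it had 4305 and 4851 after acrylamide against 3807 and 4057 after saline, and in the cerebellum 1719 and 1767 after acrylamide against 1386 and 1495 after saline. Both acrylamide arrays were thus above both saline arrays in each tissue. In single tissues 13.3% (nerve), 17.7% (cord) and 17.1% (cerebellum) of all probe sets did so, and the joint share was not computed. The average difference of Tubb2b was 0.28 ± 0.05, with an unadjusted p of 0.000579 and an adjusted p of 0.363 in limma.

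The genes whose signal followed each member most closely were ranked over the 12 arrays. By Pearson r of log2(signal + 16), Tubb3 was followed by Dennd5a (r = 0.994), Glrx2 and Tmem179, and Map1a by Stau2 (0.998), Tmem151a and Pak3. Mapt was followed by Apba2 (0.999), Rab3a and Got1, Map2 by Spock3 (0.998), Cplx1 and Nap1l5, Map1b by Cdip1 (0.997), Arhgap35 and Map7, and Map4 by Taldo1 (0.997), Snx5 and Rnaseh2a. These values share the tissue differences and the same 12 arrays. After each tissue's mean was subtracted, r was 0.46 for Tubb3 with Dennd5a, 0.75 for Map1a with Stau2, 0.99 for Mapt with Apba2, and 0.99 for Map2 with Spock3. Mapt and Map2 correlated with each other at 0.97 over the arrays and at 0.96 after the subtraction, where the 2 nerve replicate 1 arrays set both genes high.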

How the data were processed

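The arrays were Affymetrix rat arrays of 1 colour hybridised with biotinylated cRNA, per the labels. Each deposited value is an intensity of 1 probe set, and the submitters' processing notes name GCOS 1.1. Its algorithm and scaling target were not given in the sources used here. Array means after trimming lay at 500.124 to 500.151, so the arrays had been scaled as a whole, and array medians lay at 161.8 to 199.04. Of 31099 probe sets, 57 controls were left out. The platform annotation gave 1 symbol for 20826, several for 436 and none for 9780.

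Groups and replicate numbers came from the labels. Values were analysed as log2(signal + 16). A probe set was tested where its mean over 4 arrays of a tissue passed the 40th percentile of such means (signal 112), which left 21332. For 1 Map2 and 1 Map4 probe set the nerve mean was lower, so 11 of 14 member probe sets were tested for acrylamide in the nerve and 13 elsewhere. A single limma 3.58.1 model in R 4.3.3 (lmFit, eBayes with trend) held 6 group means, with 6 residual and 3.13 prior degrees of freedom, so all tissues share 1 spread per probe set. P-values were two-sided and Benjamini-Hochberg adjusted within a contrast over all probe sets tested. Precision is limited by the number of arrays. The code was tested on simulated data.

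Per-array values were given for each gene's brightest probe set, up to 4 called genes were named per list, and 3 genes of like pattern per member. Probe sets ending in _s_at or _a_at can bind several transcripts. The members, lists and markers were chosen with earlier results of these data known. Same-numbered acrylamide and saline arrays deviated together in the nerve (correlation 0.42 over probe sets) but not in the cord (-0.06) or cerebellum (0.06), so the numbers were not used as pairs. Alternatives were other normalizations, pseudocounts, filters, eBayes settings, a replicate block, fits of single tissues and each array left out.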

Additional observations from a re-analysis of the deposited data

How the results depend on the processing

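The number of member probe sets called was recomputed under each alternative. In the cord against the cerebellum it was 1, and became 2 with a pseudocount of 1, 6 with no fold minimum, and 1 to 2 with each array left out (2 without cerebellum saline replicate 1 or without spinal cord saline replicate 1). For acrylamide in the nerve it was 0, and 1 (Map2) with both nerve replicate 1 arrays left out. That setting gave 9 for nerve against cord and 11 for nerve against cerebellum. With the replicate block the counts were 9 for nerve against cord, 12 for nerve against cerebellum, 1 for cord against cerebellum and 0 for each acrylamide test, so the block changed none. With each array left out they were 9 to 10 and 11 to 12 in the nerve comparisons and 0 for acrylamide.

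For single probe sets, Tubb3 in nerve against cerebellum went under 2-fold with quantile normalization (-0.9999), median centring (-0.87), and without cerebellum saline replicate 2 (-0.97) or nerve saline replicate 1 (-0.95). Map4 did so with quantile normalization (0.996), and Map1b in nerve against cord passed 2-fold with it (-1.12) and without nerve saline replicate 2 (-1.04). All 27 changes of sign were in uncalled acrylamide differences. Quantile normalization turned Tubb3 in the cord (-0.0060, from 0.0018) and Map1b in the nerve (0.020, from -0.03), and median centring turned Map1b in the cord (0.0060, from -0.02). Leaving out both nerve replicate 1 arrays turned Map1a in the nerve (-0.015, from 0.08) and the average of Map4 (-0.030, from 0.04). With each array left out, the ranges were -0.12 to 0.084 for Tubb3, -0.0020 to 0.033 for Mapt and -0.12 to 0.049 for Map1a in the cerebellum, and -0.065 to 0.068 for Tubb3 and -0.066 to 0.035 for Map1b in the cord. In the nerve they were -0.46 to 0.89 for Mapt, -1.59 to 1.24 for Map2, -0.072 to 0.23 for Map1a, -0.13 to 0.063 for Map1b and -0.24 to 0.089 for Map4. For the averages they were -0.13 to 0.32 for Mapt, -0.52 to 0.42 for Map2, -0.0012 to 0.098 for Map1a and -0.017 to 0.094 for Map4. The causes were not tested. With all probe sets of a gene counted, 1 folding cofactor was called in nerve against cerebellum and 2 end binding genes in cord against cerebellum. Signals near the filter, as for 1369901_at, 1368411_a_at and 1392254_at, limit those probe sets.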
